A study of Mus musculus with 18 samples.

Results

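Endothelial cells and stroma are the framework of the spleen, and the transcripts described here are 9 genes that mark them: Pecam1, Cdh5 and Kdr of blood vessels, Madcam1 of sinus lining, Lum, Dcn, Col1a1 and Col3a1 of the matrix, and Cxcl13 of the B cell follicle. They were chosen by name as signs of retained spleen structure, and each was read from the 1 probe set on the array that carries its symbol alone, so that all 9 of 9 were measured, among 19938 genes in all. The samples were splenic tumours of 18 Eμ-Myc mice, a strain whose Myc transgene is under the heavy chain enhancer Eμ, so that B lineage cells express it and lymphomas arise from them. All mice carried this transgene on a C57BL/6 background and had no treatment. The Prdm11 WT group held 9 mice and the Prdm11 KO group 9 mice, each tumour from a mouse of its own, named below by genotype and number (WT1 to WT9, KO1 to KO9). The age of the mice and the design of the Prdm11 KO allele are not given in the sources used here. Tumours were collected at end stage and homogenised, and no separation of cells is stated, so RNA of tumour, stroma and blood is read together. In such bulk samples, fewer cells of a type and less RNA per cell cannot be told apart. No spleen without a tumour was analysed here, so the levels have no normal organ to stand against.

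The normal spleen is built on a mesh of fibroblastic reticular cells that wrap collagen fibres and guide lymphocytes and blood. Endothelium lines its arteries, its venous sinuses and the marginal sinus around the white pulp, where in the mouse the lining cells carry the addressin MAdCAM-1. Follicular dendritic cells and other stroma of the B cell zone secrete CXCL13, the ligand of CXCR5, and lymphotoxin from B cells maintains these cells. Loss of this layout is a known feature of spleens that lymphoma has overrun.

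RefSeq promoters (GRCm38.p6) were matched for 4 of the 9 genes, and 3 are shown here: Madcam1 and Col3a1 because their levels went together across the tumours, and Cxcl13 because its level varied most. Each is the 250 bases before the annotated start, read 5′ to 3′ on the strand of the gene, which is the plus strand for all 3. Madcam1 lies at chr10:79664309-79664558, Col3a1 at chr1:45311288-45311537 and Cxcl13 at chr5:95956689-95956938. Capitals mark matches to the NF-kB consensus in Madcam1 and to TATAAA in the others.
Madcam1: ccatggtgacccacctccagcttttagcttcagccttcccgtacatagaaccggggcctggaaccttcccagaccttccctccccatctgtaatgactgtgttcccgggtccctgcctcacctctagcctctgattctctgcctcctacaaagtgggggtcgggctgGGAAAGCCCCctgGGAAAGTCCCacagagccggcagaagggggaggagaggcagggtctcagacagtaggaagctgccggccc
Col3a1: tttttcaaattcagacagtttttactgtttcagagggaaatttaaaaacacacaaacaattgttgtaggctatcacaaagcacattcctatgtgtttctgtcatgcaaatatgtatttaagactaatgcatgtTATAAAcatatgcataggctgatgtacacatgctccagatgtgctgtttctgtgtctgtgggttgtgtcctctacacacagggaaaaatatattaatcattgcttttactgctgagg
Cxcl13: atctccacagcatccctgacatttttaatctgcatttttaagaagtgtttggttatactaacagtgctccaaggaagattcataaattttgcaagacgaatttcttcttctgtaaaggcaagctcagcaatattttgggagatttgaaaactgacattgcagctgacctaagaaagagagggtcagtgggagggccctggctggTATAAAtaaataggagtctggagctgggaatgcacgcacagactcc

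The searches covered both strands. The Madcam1 window held 2 matches to the NF-kB consensus, both on the minus strand, lying 83 and 70 bases before the start. The Kdr window, matched but not shown, also held 2, on the plus and the minus strand at the same place, 74 bases before the start. Such a match is in 7.25% of 32851 RefSeq promoter windows of this length. TATAAA was found on the plus strand 46 bases before the start of Cxcl13 and 117 bases before that of Col3a1, and is in 12.4% of windows. The Madcam1 window held 0 TATAAA, and CCAAT, which is in 33.8% of windows, was found in 0 of these 3. The short core GGAA of ETS factors was found 8 times in Madcam1, 3 times in Col3a1 and 2 times in Cxcl13, and is in 93.4% of windows. One of the plus-strand GGAA cores in Madcam1 begins at each NF-kB match, so these overlap. The matches describe letters, and binding was not measured.

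Levels are log2 RMA intensities throughout, and differences are KO minus WT on that scale. Array medians ran from 5.14 (KO9) to 5.38 (WT3), and WT3 was the array least like the others, with a median correlation of 0.924 against at least 0.957 for the remaining arrays. Brightness differs between probe sets for reasons of sequence, so a level is compared between tumours and not between genes. As a rough mark of brightness without marked expression, 17 genes of other organs (such as Alb of liver and Tnni3 of heart) had mean levels from 3.29 to 6.48. Whether all of them were unexpressed here was not checked. The brightest, Tnni3, ran from 5.97 to 8.09 across the tumours. Pecam1 and Cxcl13 were above all 17 of these, Dcn and Col1a1 above all but 2, Cdh5 above all but 3 and Col3a1 above all but 4. For Madcam1, 7 of the 17 were at or above its mean, for Kdr 8 and for Lum 16, and Kdr and Lum were below the array median on 18 of 18 arrays. The brightness of the Madcam1, Kdr and Lum probe sets therefore did not separate them from these genes of other organs.

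The levels of all 9 genes overlapped between genotypes, and none of the 9 passed the threshold of an adjusted p below 0.05 in limma with Benjamini-Hochberg adjustment over all genes. The background is small: 1 of 19938 genes was called (0.00502%), which was Cd59a, a complement inhibitor that lies outside the set and was chosen for mention after its values were seen. No gene was called in 10 of the 18 fits that left out 1 tumour each (WT3, WT4, WT5, WT6, WT7, WT9, KO3, KO5, KO7 or KO8). Without adjustment, 3.87% of all genes were lower and 2.83% higher in KO tumours at p below 0.05, and of the 9 genes 1 was lower (Lum) and 0 were higher. Groups that did not overlap were found for 0.01% of all genes and for 0 of the 9. The median difference over the 9 genes was -0.13, beside -0.03 over all genes, with 2 differences above 0 and 7 below. Over the 9969 genes brighter than the median gene it was 0.01, so dimmer genes as a class tended lower in KO tumours. The medians and signs of the lists below are to be read beside these values.

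**Figure D1:**
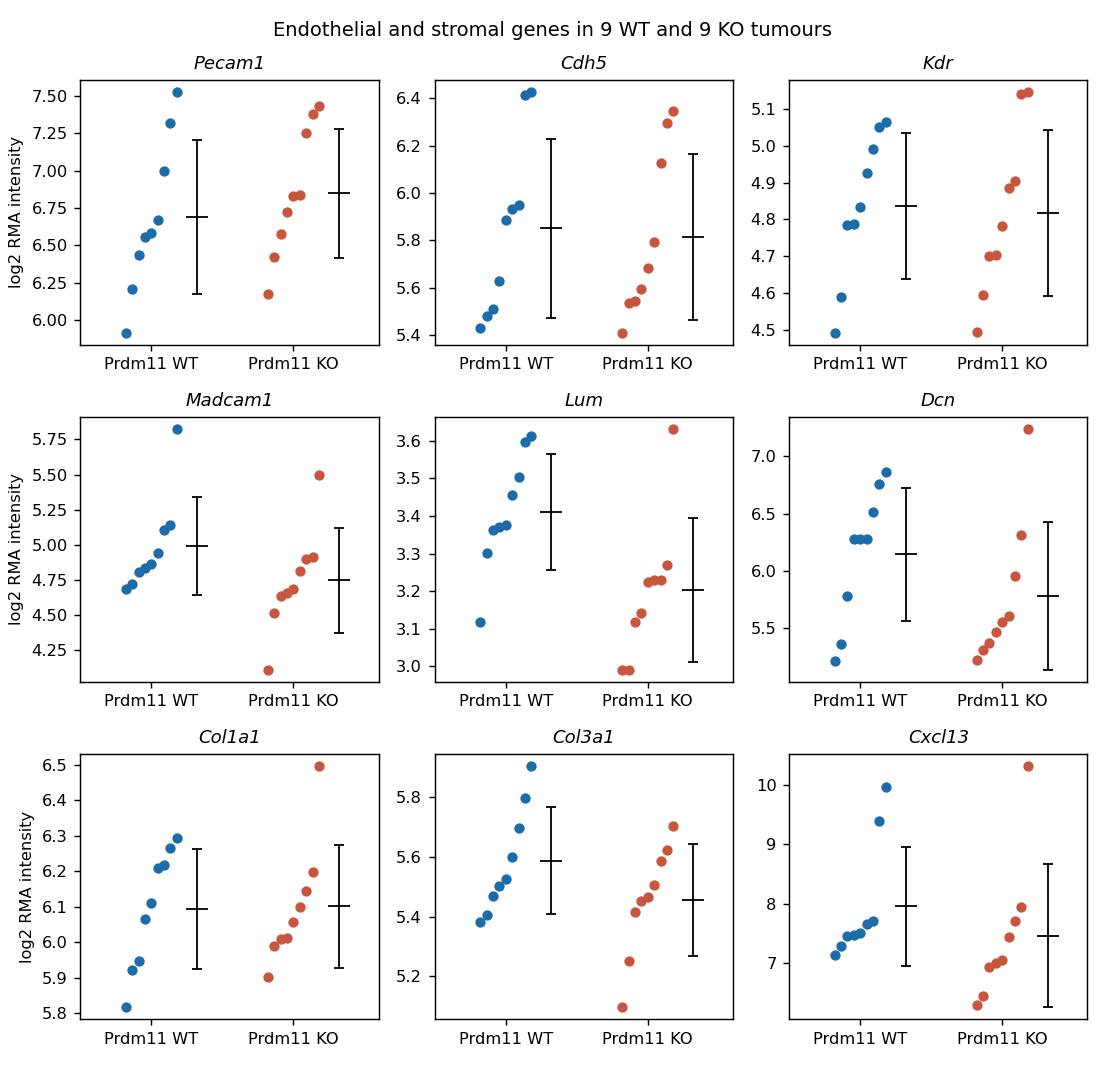
Level of each gene in each tumour (vertical axis, log2 RMA intensity, with a range of its own in each panel) for 9 Prdm11 WT tumours (blue) and 9 KO tumours (red), ordered by value, with the mean and SD of each group beside the points. The groups overlap in every panel, and Cxcl13 has 2 WT tumours and 1 KO tumour between 9.40 and 10.3 while the other 15 tumours lie between 6.29 and 7.95.

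The endothelial genes varied from tumour to tumour, with genotypes that overlapped almost wholly. Pecam1 encodes CD31, the adhesion molecule of endothelial junctions that platelets and many leukocytes also carry. It ran from 5.91 through a median of 6.58 to 7.53 in WT tumours and from 6.18 through 6.83 to 7.43 in KO tumours. It was highest in WT8, with KO6, KO1 and WT1 close behind, and lowest in WT3. The means were 6.69 ± 0.515 (SD, n = 9) in WT and 6.85 ± 0.434 (SD, n = 9) in KO tumours, which is a difference of 0.16 (SE 0.225, 95% interval -0.28 to 0.59, limma adjusted p = 0.905). Without WT3 the difference was 0.06, and without WT8 it was 0.26, neither past the threshold.

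Cdh5 encodes VE-cadherin, the cadherin that holds endothelial cells together and one of the most restricted endothelial markers. It ran from 5.43 through 5.89 to 6.43 in WT and from 5.41 through 5.68 to 6.34 in KO tumours. The highest values were in WT2, WT1, KO3, KO6 and KO2, and both genotypes were also found among the lowest. The means were 5.85 ± 0.379 (SD, n = 9) and 5.81 ± 0.352 (SD, n = 9), a difference of -0.04 (SE 0.172, 95% interval -0.38 to 0.30, limma adjusted p = 0.982).

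Kdr encodes VEGFR2, the main signalling receptor for VEGF-A on endothelium. Its probe set was dim, from 4.49 through 4.83 to 5.07 in WT and from 4.49 through 4.78 to 5.15 in KO tumours. The highest were KO6 and KO3 and the lowest WT9 and KO8, and the groups overlapped over nearly the whole range. The means were 4.84 ± 0.199 (SD, n = 9) and 4.82 ± 0.226 (SD, n = 9), a difference of -0.02 (SE 0.1003, 95% interval -0.24 to 0.20, limma adjusted p = 0.986). The sign of this difference turned under quantile normalization and under centring on array medians, where it was 0.0014 and 0.00067.

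Cdh5 and Kdr went together across tumours, although neither passed the threshold between genotypes. Their Pearson correlation was 0.826 over 18 tumours (permutation p = 7e-05, adjusted over 36 pairs 0.00084), and Spearman's rho was 0.802 (permutation p = 0.00021, adjusted 0.0054). Without WT1 and WT2, the tumours farthest from the median of Cdh5, r was 0.822, and within the genotypes it was 0.724 in WT and 0.930 in KO tumours. Pecam1 was less closely tied to them, with r = 0.598 to Kdr (permutation p = 0.00881, adjusted 0.0793; rho 0.581, permutation p = 0.0122, adjusted 0.0876; 0.711 without WT3 and WT8). With Cdh5 its r was 0.520 (permutation p = 0.027, adjusted 0.129; rho 0.453, permutation p = 0.0602, adjusted 0.241; 0.647 without WT3 and WT8). For Pecam1 and Kdr r was 0.354 in WT and 0.904 in KO tumours, and the difference between these was not tested.

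Among genes brighter than the median gene, those most like Cdh5 across the 18 tumours were Med12 (r = 0.902), Stab2 (0.891) and Ube2h (0.882). Those most like Kdr were Myo9a (0.899), Stab2 (0.894) and Tln1 (0.864). Stab2 encodes stabilin-2, the scavenger receptor of sinusoidal endothelium in spleen and liver, and was thus shared by both. It ran from 5.77 in WT9 to 7.25 in KO3, with a difference between genotypes of 0.0011 (SE 0.186, limma adjusted p = 0.999). Pecam1 was most like Cbl (0.899), Tcf4 (0.884) and Zmynd11 (0.859), and its r with Stab2 was 0.477. None of Cbl, Tcf4 and Zmynd11 is an endothelial marker, and neither are Med12, Ube2h, Myo9a and Tln1. These coefficients are descriptions over 18 tumours that share their arrays and have no p.

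The wider endothelial list held 24 measured genes. Their median difference was -0.09, beside -0.03 over all genes. Of these 24, 0 passed the limma threshold, and 0 were higher and 3 lower in KO tumours at an unadjusted p below 0.05. The 3 were Sox17 (-0.22, SE 0.078, adjusted p = 0.699 in limma) and Sox18 (-0.23, SE 0.105, adjusted p = 0.729), transcription factors of vessel formation, and Cldn5 (-0.22, SE 0.102, adjusted p = 0.738), a tight junction protein, which is named outside the rule because the count was small. The correlation to Cdh5 was above 0.5 for 3 of the 24 genes and to Kdr for 7, among them Flt1, the VEGF receptor 1 (0.681 and 0.698), while it was above 0.5 to Pecam1 for 0 of 24 and below 0 for 8. Over all other genes the shares above 0.5 were 8.58% for Cdh5, 6.84% for Kdr and 7.6% for Pecam1. Of these 24 probe sets, 13 had mean levels below the median gene. Of 10 measured VEGF, angiopoietin and Notch ligands and co-receptors, 0 passed, and 1, the Notch ligand Dll4 (-0.23, SE 0.091, adjusted p = 0.717), was lower at an unadjusted p below 0.05. Vegfb, the next by p, had -0.14, and the median of the list was -0.10.

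Smooth muscle and pericyte genes were evenly split. Of 12 measured, 6 differences were above 0 and 6 below, with 0 at an unadjusted p below 0.05 and a median of -0.01. The smallest p belonged to Notch3 (-0.14), a receptor of vascular smooth muscle, and Myh11 (0.15), smooth muscle myosin. The 10 basement membrane genes had a median of -0.07, beside -0.03 over all genes, with 0 at an unadjusted p below 0.05. Of these, Lamc1, a laminin chain, had 0.29 and Nid2, nidogen 2, had -0.18.

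Madcam1, the addressin of marginal sinus lining cells that binds integrin α4β7, was dim in most tumours and brighter in a few. It ran from 4.68 through 4.86 to 5.83 in WT and from 4.11 through 4.68 to 5.50 in KO tumours. WT3 and KO6 stood above the rest, followed by WT5 at 5.14 and WT4 at 5.10, and KO9 was lowest by a wide margin. In 5 of 9 KO tumours Madcam1 was below every WT tumour, and 6 of 9 were below the WT median. Some of these were near ties: the lowest WT tumour, WT8, was at 4.683, with KO4 at 4.682 and KO8 at 4.65. The share of all genes with as many KO tumours below the WT range was not counted. The means were 4.99 ± 0.349 (SD, n = 9) and 4.75 ± 0.372 (SD, n = 9), a difference of -0.24 (SE 0.170, 95% interval -0.58 to 0.09, limma adjusted p = 0.805). The difference was -0.34 without KO6 and -0.13 without WT3 and KO4, with no adjusted p past the threshold.

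Col3a1 encodes the chain of type III collagen, the collagen of the reticular fibres of the spleen. It ran from 5.38 through 5.53 to 5.90 in WT and from 5.10 through 5.47 to 5.70 in KO tumours. The order resembled that of Madcam1: WT3 was highest and KO9 lowest, and WT4, KO6 and WT5 followed WT3. The means were 5.59 ± 0.179 (SD, n = 9) and 5.46 ± 0.187 (SD, n = 9), a difference of -0.13 (SE 0.0862, 95% interval -0.33 to 0.06, limma adjusted p = 0.817). It was -0.09 both without KO9 and without WT3, neither past the threshold.

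Madcam1 and Col3a1 went together across tumours. By Pearson's r they were the closest of the 28 pairs without Cxcl13, while by rho and without the farthest tumours Cdh5 and Kdr were closer. Their r was 0.872 over 18 tumours (permutation p = 1e-05, the smallest that the resamples can give, adjusted over 36 pairs 0.00036), and rho was 0.746 (permutation p = 0.00058, adjusted 0.00696). Without WT3 and KO9, the tumours at the ends, r was 0.725, and it was 0.832 in WT and 0.874 in KO tumours. Scaling the arrays by quantiles gave 0.835 and by medians 0.819. The mean of the organ genes was set beside both. Of these 17 genes, 7 were at or above Madcam1 in mean level and 4 at or above Col3a1. Over 18 tumours the correlation of that mean with Madcam1 was 0.404 (permutation p = 0.0974, adjusted over 9 genes 0.175; rho 0.300, permutation p = 0.225, adjusted 0.405) and 0.146 without WT3 and KO4. With Col3a1 it was 0.522 (permutation p = 0.0272, adjusted 0.122; rho 0.515, permutation p = 0.0308, adjusted 0.0925) and 0.433 without those tumours. Within WT tumours these values were 0.891 and 0.849, and within KO tumours -0.03 and 0.231. The part of array-wide brightness in the pairing was not tested.

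**Figure D2:**
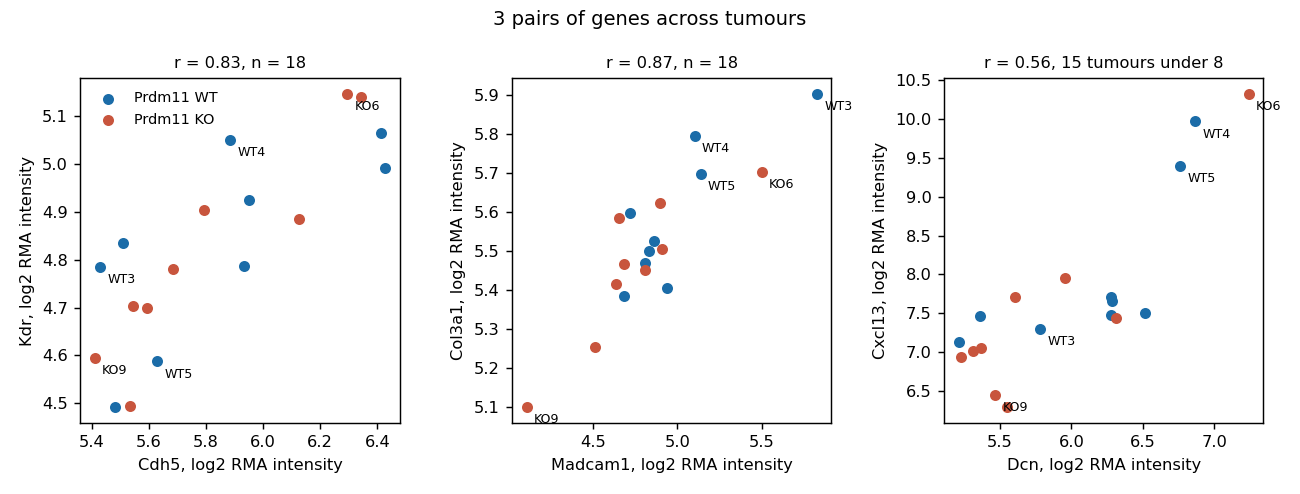
Each point is a tumour (blue WT, red KO), with log2 RMA intensities of Cdh5 and Kdr, Madcam1 and Col3a1, and Dcn and Cxcl13 on the axes. The first 2 pairs rise together with r = 0.826 and 0.872 over 18 tumours, and in the third WT4, WT5 and KO6 stand apart at high Cxcl13, so that its r of 0.563 is over the other 15 tumours.

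The 3 genes most like Madcam1 among the brighter genes were Col3a1 (0.872), Wt1 (0.848), a transcription factor of splenic mesenchyme and mesothelium, and Aldh1a3 (0.830), a retinoic acid synthesising enzyme. Of 16 reticular stroma genes, Wt1 among them, 5 had an r above 0.5 to Madcam1 and 2 an r below 0, with Nr2f2 (0.701) and Tlx1 (0.641) next to Wt1. Their median r was 0.361, beside 0.141 over all other genes, of which 13.0% were above 0.5. Col3a1 was most like Aebp1 (0.862), a collagen-binding matrix protein, Ncald (0.856) and Gprin2 (0.855), the last pair known from neurons. Of 25 matrix genes, 11 had an r above 0.5 to Col3a1 and 6 an r below 0, and their median was 0.438, beside 0.140 over all other genes, of which 15.5% were above 0.5. The highest in the list, all lower than these 3, were Col6a3 (0.767), Col5a2 (0.691) and Serpinh1, the collagen chaperone (0.657).

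Col1a1, the α1 chain of type I collagen, was the steadiest of the 9 genes. It ran from 5.82 through 6.11 to 6.29 in WT and from 5.90 through 6.06 to 6.496 in KO tumours, and its SD over 18 tumours was at percentile 8.42 of all genes. KO4 was highest and WT9 lowest, and the other tumours filled one shared range. The means were 6.09 ± 0.168 (SD, n = 9) and 6.10 ± 0.172 (SD, n = 9), a difference of 0.01 (SE 0.0803, 95% interval -0.18 to 0.19, limma adjusted p = 0.995). The sign turned under quantile normalization (-0.007), with array weights (-0.05), without WT3 and KO4 (-0.02) and in 5 of the fits that left out 1 tumour.

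The level of Col1a1 followed that of genes of other organs. Its r with their mean was 0.701 over 18 tumours (permutation p = 0.00108, adjusted over 9 genes 0.00972), rho was 0.721 (permutation p = 0.00113, adjusted 0.0102), and r without WT3 and KO4 was 0.539. It was 0.737 within WT and 0.697 within KO tumours. The genes most like it were Plb1 (0.889), an intestinal phospholipase, Hoxb7 (0.888) and Cdk5r2 (0.885), a neuronal kinase activator, with Col1a2, the partner chain of type I collagen, at 0.741. Its r with Col3a1 was 0.519 (permutation p = 0.0287, adjusted 0.129) and rho was 0.670 (permutation p = 0.00297, adjusted 0.0267), while r was 0.731 without KO4 and WT9 and 0.211 after median centring. The part of array-wide brightness in these relations was not tested.

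Dcn and Lum encode decorin and lumican, small leucine-rich proteoglycans that coat collagen fibrils, and are adjacent on chromosome 10 with 0 genes between them in the RefSeq table. Dcn was bright and varied. It ran from 5.21 through 6.28 to 6.87 in WT and from 5.23 through 5.55 to 7.24 in KO tumours, a 4.09-fold span, and its SD was at percentile 95.2 of all genes. The highest were KO6, WT4 and WT5, and 7 of 9 KO tumours were below the WT median, although the KO group also held the highest tumour. The means were 6.15 ± 0.582 (SD, n = 9) and 5.78 ± 0.645 (SD, n = 9), a difference of -0.37 (SE 0.290, 95% interval -0.91 to 0.18, limma adjusted p = 0.819). Without KO6 the difference was -0.55 (adjusted p = 0.615, limma), and without WT4 it was -0.28.

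Lum was the 1 gene of the 9 lower in KO tumours at an unadjusted p below 0.05, and it was also the dimmest of them relative to genes of other organs. It ran from 3.12 through 3.38 to 3.61 in WT and from 2.99 through 3.22 to 3.63 in KO tumours. In 8 of 9 KO tumours Lum was below the WT median, and KO8 was the exception, above all WT tumours. The means were 3.41 ± 0.153 (SD, n = 9) and 3.20 ± 0.190 (SD, n = 9), a difference of -0.21 (SE 0.0815, 95% interval -0.40 to -0.02, limma p = 0.0316, adjusted p = 0.718, exact permutation p = 0.0231). With 16 of 17 organ genes at or above it in mean level, and 18 of 18 arrays with Lum below the array median, this is a difference between values near the lower end of the scale. Its unadjusted limma p stayed below 0.05 in 18 of 26 other settings. Under median centring it was 0.0592 (difference -0.19), and with an offset of 16 it was 0.0579. Of the 25 matrix genes, 0 had an r above 0.5 to Lum and 13 an r below 0, beside 2.0% of all other genes above 0.5. The genes most like it were Zfp93 (0.788), Cx3cl1 (0.683) and Barx2 (0.682). With the mean of the organ genes, r of Lum was 0.447 (permutation p = 0.0622, adjusted over 9 genes 0.14). Its rho was 0.567 (permutation p = 0.0156, adjusted 0.0703). Without WT3 and KO4 r was 0.623, and it was -0.03 within WT and 0.754 within KO tumours. The part of array-wide brightness in the Lum difference was not tested.

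The matrix list as a whole had 25 measured genes, of which 0 passed the limma threshold and 0 had an unadjusted p below 0.05. In KO tumours 4 differences were above 0 and 21 below, with a median of -0.07, beside -0.03 over all genes. Of these 25 probe sets, 10 had mean levels below the median gene. Those with the smallest p were Pcolce (-0.18), an enhancer of procollagen processing, and Fbln2 (-0.13), fibulin-2. Dcn was most like Mgp, matrix Gla protein, within this list (0.761), while the genes most like it among all brighter genes were Cxcl9 (0.889) and Ccl19 (0.869), chemokines that attract T cells, and Cdh11 (0.851), a cadherin of mesenchyme.

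**Figure D3:**
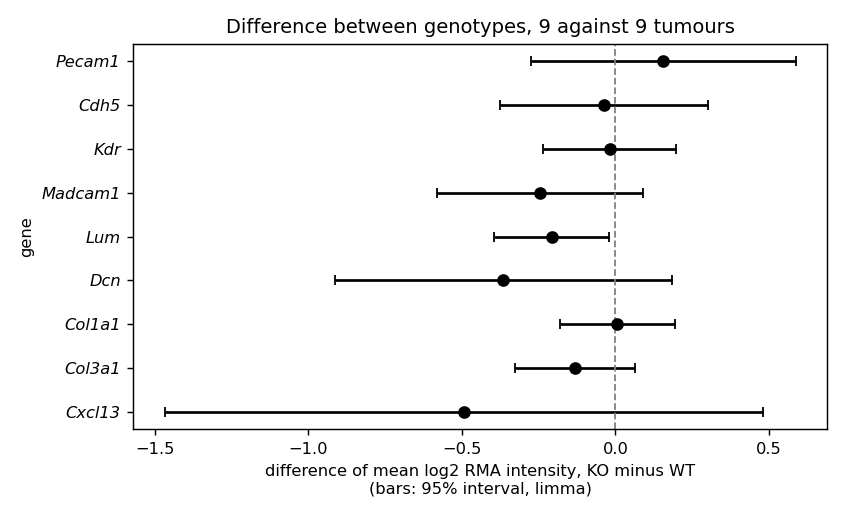
Difference of mean log2 RMA intensity, KO minus WT, for each gene (points) with its 95% interval from limma (bars), 9 against 9 tumours. The interval includes 0 for all but Lum, at -0.40 to -0.02, whose adjusted p was 0.718 (limma).

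Cxcl13 varied more than any other of the 9 genes, with a 16.3-fold span and an SD at percentile 99.6 of all genes. It ran from 7.13 through 7.50 to 9.97 in WT and from 6.29 through 7.05 to 10.3 in KO tumours. WT4 at 9.97, WT5 at 9.40 and KO6 at 10.3 stood apart, while the other 15 tumours lay between 6.29 and 7.95, a gap of 1.45. The level was thus high in tumours of both genotypes, and 5 of 9 KO tumours were below every WT tumour, a count not made over all genes. The means were 7.96 ± 1.005 (SD, n = 9) and 7.46 ± 1.20 (SD, n = 9), a difference of -0.49 (SE 0.522, 95% interval -1.47 to 0.48, limma adjusted p = 0.866). It was -0.85 without KO6 (adjusted p = 0.595, limma) and -0.24 without WT4, so the size of the difference rested on single tumours.

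The same tumours were high in some other stromal genes and lists. Dcn was highest in KO6, WT4 and WT5, at 7.24, 6.87 and 6.76, against at most 6.51 in the other 15. The mean of 16 reticular stroma genes was 6.39 in WT4, 6.35 in WT5 and 6.35 in KO6, above the 5.66 to 6.06 of the others. The mean of 9 follicular dendritic cell genes was 6.80, 6.57 and 7.09 in the same order, above the 5.46 to 6.22 of the others. These are values of tumours picked by their Cxcl13 level and have no test.

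Single genes showed the size of this contrast, though not every gene of these lists shared it. Cr2, complement receptor 2, which follicular dendritic cells and mature B cells carry, was 8.05 in WT4, 7.16 in WT5 and 9.64 in KO6, while its median over 18 tumours was 5.09. Ccl19, the T zone chemokine of fibroblastic reticular cells, was 8.98, 9.08 and 9.58, with WT8 at 8.51 next and a median of 7.50. By contrast, Fcgr2b of the follicular dendritic cell list was 5.95, 6.23 and 6.18, each below its median of 6.31. Nkx2-3 of the reticular stroma list was 5.41, 5.94 and 5.37 against a median of 5.44. Cxcr5, the receptor for CXCL13, was 4.81 in WT4, 5.14 in WT5 and 5.81 in KO6, with WT2 at 5.11 above WT4 and a median of 4.37. Pecam1, Cdh5, Kdr, Lum and Col1a1 did not share the order. In WT4, WT5 and KO6 the ranks of 18 were 11, 14 and 2 for Pecam1, 8, 11 and 4 for Cdh5, and 4, 16 and 1 for Kdr. They were 9, 5 and 17 for Lum and 5, 2 and 12 for Col1a1. Madcam1, with ranks 4, 3 and 2, and Col3a1, with 2, 4 and 3, were high in all of them but highest in WT3. The basement membrane list ranked 8, 10 and 5, and the endothelial list 2, 6 and 3.

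Lymphocytes and blood cells varied in the same tumours. The T cell list averaged 7.43 in WT4, 7.17 in WT5 and 7.67 in KO6, with WT8 at 7.51 and the lowest tumour at 5.46. The neutrophil list was highest in WT4 and WT5, at 9.07 and 8.95, and 7.06 in KO6, rank 13. The pan-B list was highest in KO6 at 7.97 and ranked 10 and 7 in WT4 and WT5, and the erythroid list was lowest in KO6 at 6.63. The part of these other cells in the Cxcl13 and Dcn levels was not tested.

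**Figure D4:**
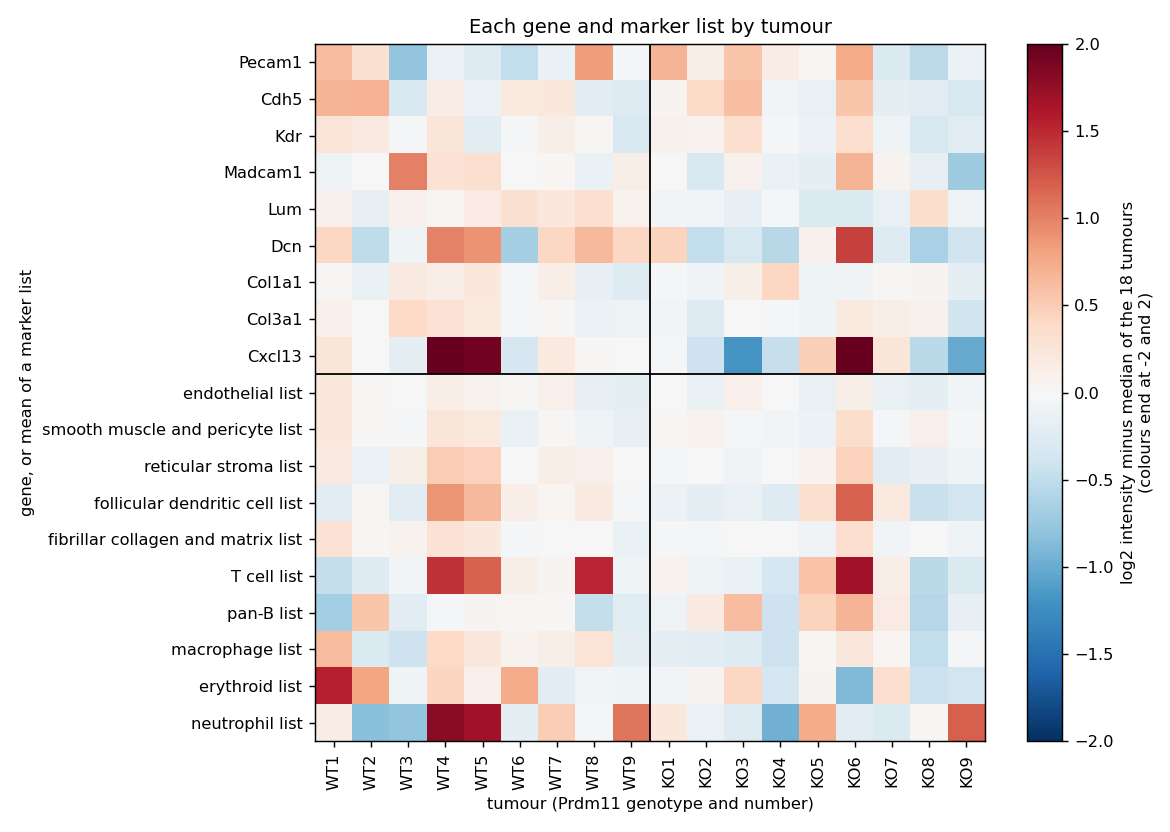
Each cell is a tumour's log2 RMA intensity minus the median over the 18 tumours, for each of the 9 genes (upper rows) and for the mean of a marker list (lower rows), with WT tumours left and KO tumours right and the colour scale ending 2 units on either side of 0. WT4, WT5 and KO6 are red for Cxcl13, Dcn and the follicular dendritic cell, reticular stroma and T cell lists, and KO9 is below the median for all 9 genes.

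Because of the gap, correlations with Cxcl13 are given over the 15 tumours between 6.29 and 7.95. There Dcn had an r of 0.563 (permutation p = 0.0284, adjusted over 8 genes 0.227) and a rho of 0.600 (permutation p = 0.0203, adjusted 0.162), and r was 0.574 without WT8 and KO1. The other 7 genes had r between -0.17 and 0.317, with adjusted p of 0.965 each by permutation. The genes most like Cxcl13 over all tumours were Tlr3, a sensor of double-stranded RNA, Cr2, and Cfb, complement factor B. Over the 15 tumours their r with Cxcl13 was 0.683, 0.598 and 0.603, and rho was 0.646, 0.464 and 0.757. Without the 2 tumours farthest from the median of each gene, r was 0.818, 0.391 and 0.446. Clu and Il15 of the follicular dendritic cell list had r of 0.092 and 0.462 over the 15 tumours, and Ccl19 had 0.501.

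The genes around Cxcl13 did not pass the threshold between genotypes. Of 9 follicular dendritic cell genes, 0 passed in limma and 1 was lower at an unadjusted p below 0.05, with a median difference of -0.03. These had Prnp, the prion protein, at -0.40 (SE 0.164, adjusted p = 0.699) and Il15 at -0.62 (SE 0.389, adjusted p = 0.780) as the smallest p. Of 13 genes of the lymphotoxin and homing axis, 0 passed and 1 was lower at an unadjusted p below 0.05, with a median of -0.07: Ltbr, the lymphotoxin β receptor of stroma, had -0.21 (SE 0.077, adjusted p = 0.699 in limma), and Tnfsf11, which encodes RANKL, had -0.16. Ltb, the ligand of that receptor, was 6.63 in WT4, 6.56 in WT5 and 6.53 in KO6 against a median of 5.48. Next was WT8 at 6.44, a tumour with Cxcl13 at 7.50.

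Of 16 reticular stroma genes, 0 passed, with 3 differences above 0, 13 below and a median of -0.14, beside -0.03 over all genes. At an unadjusted p below 0.05, 3 were lower in KO tumours. The 3 were Il7 (-0.44, SE 0.149, adjusted p = 0.674 in limma), the survival cytokine that stroma makes for lymphocytes, and Tcf21 (-0.56, SE 0.272, adjusted p = 0.719) and Tlx1 (-0.21, SE 0.091, adjusted p = 0.728), transcription factors needed for the spleen to form. Tlx1 is named outside the rule because the count was small. Tcf21 ran from 5.77 in KO4 to 8.01 in WT4, with WT5 at 7.84, WT7 at 7.43 and KO6 at 7.26 next.

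Lists of other cells gave these values in the same groups. Of 13 pan-B genes, 6 were higher in KO tumours at an unadjusted p below 0.05 and 0 passed in limma, with a median of 0.20, and Cd72 (0.50) and Pax5 (0.57) had the smallest p. The summed pan-B mean ran from 6.61 to 7.84 in WT and from 6.71 to 7.97 in KO tumours. Of 9 erythroid genes, 4 were lower at an unadjusted p below 0.05 with a median of -0.43, led by Klf1 (-0.68) and Rhd (-0.81), and the list mean ran from 7.31 to 9.07 in WT and from 6.63 to 7.94 in KO tumours. Of 13 macrophage genes, 2 were lower, C1qc (-0.49) and Hmox1 (-0.33), with a median of -0.21. The part of these cells in the differences of the 9 genes was not tested.

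For the remaining lists 0 genes passed in limma. T cell genes had a median of -0.23 with 0 of 10 at an unadjusted p below 0.05 (Cd3g -0.77, Cd3d -0.80), and neutrophil genes -0.32 with 0 of 10 (Lcn2 -0.77, Ly6g -0.52). Megakaryocyte genes had a median of 0.01 with 0 of 8 (Gp9 -0.23, Itgb3 0.18). Tissue at the edge of the organ was measured too: mesothelium and capsule genes had a median of -0.08 with 1 of 9 higher (Lrrn4, 0.36) and 1 lower (Upk3b, -0.27), adipocyte genes -0.12 with 1 of 7 lower (Adipoq, -0.47, followed by Lpl, -0.19) and pancreas genes -0.16 with 1 of 8 lower (Cela1, -0.40, followed by Prss2, -0.18). The mean of the pancreas list was highest in WT1 at 5.54, with WT3 at 5.23 next. Cpb1 was 5.37 in WT1, beside a WT mean of 3.71. Ctrb1, Cpa1 and Cela2a were also highest in WT1, while Cela1, Prss2, Cel and Ins2 were highest in other tumours. WT1 was the highest tumour for the endothelial list too, at 5.68. The part of pancreas tissue in the WT1 levels was not tested. The organ genes had a median of -0.05, with 1 of 17 lower (Gfap, -0.22, followed by Ttr, -0.18).

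By tumour, KO6 had the highest mean over the 9 genes, 6.29, and was the highest tumour for 3 of them. KO9 had the lowest mean, 5.20, was below the 18-tumour median for all 9 genes and was the lowest tumour for 3. Its array median was also the lowest, 5.14. WT1, WT4 and WT7 had 8 of 9 genes at or above the median, and WT1 was also the highest tumour for the pancreas list. The highest and the lowest mean were both found in KO tumours. The order of the tumours was not the same for all 9 genes, and differences in order were not tested. Over 18 tumours r with Dcn was 0.461 for Madcam1 (permutation p = 0.0521, adjusted 0.208) and 0.407 for Col3a1 (permutation p = 0.0942, adjusted 0.339). Without the 2 farthest tumours of each pair these were 0.699 and 0.202, so the groups of genes were not shown to be separate.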

How the data were processed

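Per the submitters' processing notes, the authors used RMA, and the deposited table holds linear intensities of probe sets. Its version, the scan dates and the genome build are not given in the sources used here. RNA was taken from frozen tumours with RNeasy and DNase, per the labels' protocols. Intensities (1.63 to 14996) were turned to log2 with no pseudocount. The platform annotation named 1 gene for 21789 of 35556 probe sets, several for 1621 and none for 12146, and 21698 were matched to RefSeq (GRCm38.p6), which changed 0 symbols. Each gene was read from its probe set of highest mean. Of 153 array pairs, 0 held identical values, and the number of arrays limits the precision.

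All 19938 genes were fitted with limma 3.58.1 in R 4.3.3 (lmFit and eBayes, KO against WT, no covariate), and p-values were adjusted by the Benjamini-Hochberg method. SE is that of the difference of 2 means, and 95% intervals use limma's moderated variance. Exact permutation tests were two-sided over 48620 splits (smallest p 4.11e-05), and permutation tests of correlations used 100000 resamples, two-sided. The limma step was tested on simulated normal data, where it recovered 60.8% of 1.5-fold and 94.4% of 2-fold changes. These shares hold for the number of changed genes simulated and may differ in the tumours. Python 3.11.15 with scipy 1.17.1 was used elsewhere. The 9 genes and all lists were chosen with earlier results of these data known. Named are the 9 genes, the 2 genes of smallest p in each list, and the 3 genes of highest r to each of the 9 among genes above the median gene without unannotated clones, small RNAs and chemosensory receptors. Others were chosen after their values were seen. Alternatives were other scalings, an offset of 16, a filter on dim genes, probe set means, the replicate number as a block, array weights, a trended robust variance and left-out tumours. Replicate numbers were not taken as pairs of tumours in the main fit.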

Additional observations from a re-analysis of the deposited data

Results flagged for a closer look

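Each of the 9 genes was searched in each genotype for a tumour far from the others, by the gap to the nearest tumour as a share of the group's range (Dixon's 95% critical value). Of 18 groups, 4 were past it, where chance gives about 1 in 20. Madcam1 in WT3 was the highest of the WT tumours, with a gap of 0.602 of the range. Cxcl13 in KO6 was the highest of the KO tumours, with 0.589. Lum in KO8 was the highest of the KO tumours, with 0.565, and Col1a1 in KO4 likewise, with 0.501. WT3 and KO4 were also the arrays of lowest weight, 0.255 and 0.429.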

How the results depend on the processing

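None of the 9 genes passed the limma threshold in any of 27 settings, and the smallest adjusted p was 0.266 (Lum, array weights). Pecam1 kept a positive sign, and Madcam1, Lum, Dcn, Col3a1 and Cxcl13 a negative one, in every setting run. The 1 gene called over all genes fell to 0 with the replicate number as a block and without WT3 and KO4, a setting chosen after seeing the data, and leaving out 1 tumour each gave 0 to 1, with 0 in 10 of 18 fits. The labels state no pairing of tumours by number. After the genotype mean of each gene was taken off, same-numbered tumours correlated from -0.234 to 0.485, with 4 of 9 pairs over 0.1. Of the 9 WT tumours, 1 was most like the KO tumour of its own number. The block left 0 genes past the threshold. Differences near 0 changed sign. Kdr was 0.00136 under quantile normalization and 0.000668 under median centring, and ran from -0.062 to 0.022 over the fits that left out 1 tumour each. Col1a1 was -0.00703 under quantile normalization, -0.0462 with array weights and -0.0215 without WT3 and KO4, and ran from -0.0429 to 0.0314 over those fits, and Cdh5 ran from -0.103 to 0.0351. The cause was not tested. Lum ran from -0.26 to -0.08, the latter with an offset of 16. The filter on dim genes left out Kdr, Lum and Madcam1, whose signal near that of genes of other organs limits what their levels show.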
